A study of Rattus norvegicus with 23 samples.

Results

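The comparison described here set microglia of LPS-treated pups against microglia of pups with hypoxia-ischemia (HI) alone, that is, activation by a bacterial product against sterile injury. It used 11 of the 23 samples of the series, 5 of the LPS group and 6 of the NaCl/HI group, and all 20301 genes of the deposited table. The samples were taken by their group labels, and no measured value entered the choice. All animals were Wistar rats of both sexes, treated at postnatal day 7. The LPS group received 0.1 mg/kg Escherichia coli lipopolysaccharide intraperitoneally 4 h before a sham operation. The NaCl/HI group received 0.9% NaCl at the same time, then ligation of the left common carotid artery and 50 min of hypoxia in 8% oxygen at a rectal temperature of 36 °C, followed by 5 h of normothermia at 37 °C. At 24 h, microglia were pulled out with magnetic beads against CD11b/c, a marker that other myeloid cells carry too, and their RNA was sequenced. The 6 Sham samples, from operated pups with no injection listed, and the 6 LPS/HI samples, which received both LPS and HI, served as reference only. Sham samples were entire brains of 1 pup, as LPS samples were, and LPS/HI samples were pooled hemispheres like those of the NaCl/HI group.

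Each LPS sample was the entire brain of 1 pup, whereas each NaCl/HI sample pooled the ipsilateral hemispheres of 2 pups. The treatment, the tissue taken and the pooling therefore cannot be told apart in this comparison. The same holds for differences of the NaCl/HI group from Sham, whereas those of the LPS group from Sham were within 1 kind of sample. In bulk samples such as these, fewer cells of a type and less RNA per cell cannot be told apart either.

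Microglia are the resident macrophages of the brain and carry the receptors for bacterial products as well as those for debris and lipids from dying cells. LPS acts through a receptor complex of TLR4, MD-2 and CD14, which starts NF-kB and interferon signalling. After ischemia, microglia and incoming macrophages meet dying cells and myelin without a bacterial ligand, and phagocytes that take up such lipid are known for lipases, fatty acid binding proteins and the genes of the disease-associated state. Microglia of the newborn brain still divide, so genes of the cell cycle are read at high levels without any treatment.

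The deposited values were on a log2 scale (rlog), from which the authors had removed 3 surrogate variables, and all levels and differences below are on that scale. A positive difference means a higher value in the LPS group. The limma test was fitted to all 23 samples together, p values were adjusted over all genes by the Benjamini-Hochberg method, and a gene was called where the adjusted p was under 0.05. The rlog transformation draws differences toward 0. The depth behind a value is unknown, since the table holds no counts. Because the removal of variables kept the group means, p values can come out too low. Sample medians lay between 7.75 and 7.82. The library names ran in 2 series, numbers 1 to 12 and 13 to 23, and each group had samples in both.

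Of all genes, 1081 (5.32%) were higher in the LPS group and 743 (3.66%) were higher in the NaCl/HI group. Every LPS sample lay above every NaCl/HI sample in 972 genes (4.79%), and the reverse held in 511 genes (2.52%). The median difference over all genes was -0.00. The differences were small, with a median of 0.26 among the genes higher in the LPS group and -0.29 among those higher in the NaCl/HI group. The differences within the library series, both of which entered the calls, had the same sign for all 1081 and all 743 genes, but their sizes differed. In the first and the second series, Mmp12 differed by -2.16 and -0.74, RGD1559482 by -1.84 and -0.79, Fabp4 by -1.73 and -0.82, and Arl5c by 1.26 and 0.91, so that 4 of the 12 genes were below 2-fold in the second series. Adgb differed by 0.32 and 1.44. Called genes with a fold change above 2 numbered 12 (0.0591%), 3 higher in the LPS group and 9 higher in the NaCl/HI group, and a fold change above 1.5 by 68 and 55 genes. These counts moved with single libraries. Without LPS replicate 2, 658 and 418 genes were called, and the second count was 435, 456 and 466 when LPS replicate 4, LPS replicate 5 or NaCl/HI replicate 1 was removed. The 9 genes became 3 to 5 on removal of any 1 of LPS replicates 2, 4 and 5 and NaCl/HI replicates 1 to 3. Against Sham, the same fit called 2072 genes higher (10.2%) and 1534 lower (7.56%) in the LPS group. It called only 2 genes (0.00985%) in the NaCl/HI group, Fabp3 and Gpnmb, both higher, with 3005 genes at an unadjusted p under 0.05. Both of these comparisons share the Sham samples. Genes called higher in the LPS group had a median difference from Sham of 0.29 in that group and 0.04 in the NaCl/HI group. Genes called higher in the NaCl/HI group had a median of -0.23 in the LPS group and 0.05 in the NaCl/HI group. A call higher in the NaCl/HI group therefore does not by itself mean a rise over Sham. In the gene lists below with 0 genes called in 1 direction, at most 6 members reached an unadjusted p under 0.05 by limma in that direction, and an exact permutation test called 0 apart from 1 ribosomal protein gene. The same permutation test, over the 11 samples alone, also called fewer members of many lists in the other direction. Its count is given where it changed a count of 3 or more by over 1.5 times.

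**Figure D1:**
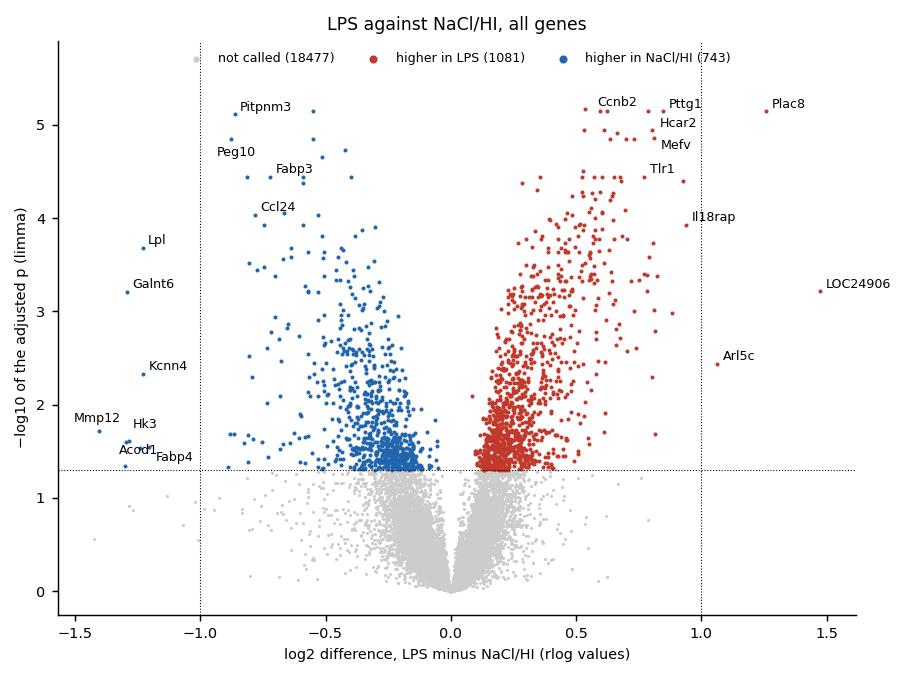
Each point is 1 of the 20301 genes, with the log2 difference (LPS minus NaCl/HI) on the x axis and −log10 of the limma adjusted p on the y axis. Dotted lines mark a fold change of 2 and an adjusted p of 0.05. Plac8, Pttg1 and Ccnb2 are among the highest points on the LPS side, and most of the 9 genes beyond the fold line on the NaCl/HI side, such as Mmp12 and Acod1, stand low, near the threshold on the y axis.

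The cells of both groups carried the markers of microglia. Of 10 defining markers, C1qa was higher in the LPS group, 2 were higher in the NaCl/HI group, among them the lipid receptor gene Trem2, and the other 7 were not called. Trem2 lost its call without LPS replicate 1 or 4 or NaCl/HI replicate 1, 5 or 6 (adjusted p 0.053 to 0.0883). The count of 2 was 0 without LPS replicate 1 or 4, 1 without LPS replicate 5 or NaCl/HI replicate 1, 5 or 6, and 0 by the exact permutation test. The fractalkine receptor Cx3cr1 ranged from 15.38 to 15.54 in the LPS group and from 15.49 to 15.68 in the NaCl/HI group. For Csf1r, the receptor that keeps microglia alive, the ranges were 16.43 to 16.60 and 16.33 to 16.63. The purinergic receptor P2ry12 ranged from 13.50 to 13.97 and from 13.65 to 14.06. The groups overlapped for all 3 genes.

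Genes of mitosis had the largest share of called members among the 54 lists, while histone genes had the larger median difference. Of 76 measured genes of mitosis and the G2 phase, 71 (93.4%) were higher in the LPS group and 0 were higher in the NaCl/HI group, beside 5.32% and 3.66% of all genes. The median difference of the list was 0.50, against -0.00 over all genes. In 69 of the 76 genes every LPS sample lay above every NaCl/HI sample, a separation that 4.79% of all genes showed. Between 69 and 72 members were called when each of the 23 libraries was left out in turn, and 67 by the permutation test. The list mean lay between 10.46 and 10.85 in the LPS group, between 10.04 and 10.15 in the NaCl/HI group and between 9.85 and 10.21 in the Sham group. The upper end of the Sham group was replicate 5 alone, and the other 5 Sham samples, at 9.85 to 9.99, lay below every NaCl/HI sample. Of the 76 members, 0 were called between NaCl/HI and Sham, and 30 were higher and 0 lower in the NaCl/HI group at an unadjusted p under 0.05. Against Sham, 75 members were higher in the LPS group, and the median differences from Sham were 0.65 for the LPS group and 0.14 for the NaCl/HI group.

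The leading members act at the start and the end of mitosis. Promoters of many such genes are known to hold a CCAAT box, bound by NF-Y, and a cell cycle homology region (CHR), bound by the DREAM and MuvB complexes. The 150 bases upstream of the start of Pttg1, Ccnb2 and Cdc20 are shown because all 3 hold both motifs and the genes are among those that separated the groups most clearly. They are RefSeq sequences of the GRCr8 build, on the gene's own strand, whereas the reads were counted on mRatBN7.2. Capitals mark the letters CCAAT and TTTGAA on either strand.
Pttg1, chr10:28406327-28406476, minus strand: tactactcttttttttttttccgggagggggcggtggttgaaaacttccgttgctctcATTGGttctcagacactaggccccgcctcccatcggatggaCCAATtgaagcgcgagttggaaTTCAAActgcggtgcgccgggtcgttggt
Ccnb2, chr8:79981659-79981808, minus strand: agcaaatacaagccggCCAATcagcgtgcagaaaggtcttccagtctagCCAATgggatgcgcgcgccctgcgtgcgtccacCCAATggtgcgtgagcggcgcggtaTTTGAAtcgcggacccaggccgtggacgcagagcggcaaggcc
Cdc20, chr5:137255800-137255949, minus strand: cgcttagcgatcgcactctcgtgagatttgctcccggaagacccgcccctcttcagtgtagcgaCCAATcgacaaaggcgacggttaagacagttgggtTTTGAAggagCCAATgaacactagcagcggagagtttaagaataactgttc
The CHR began 29 bases before the start in Pttg1, 43 in Ccnb2 and 51 in Cdc20. The window searched in all genes ran from 250 bases before to 50 after the start. Of 65 mitosis promoters, 43 (66.2%) held TTTGAA and 47 (72.3%) held CCAAT, beside 13.6% and 37.4% of the 13939 promoters of the genes compared. Of 44 promoters of DNA replication and G1/S genes, 5 (11.4%) held TTTGAA and 26 (59.1%) held CCAAT. Among all genes higher in the LPS group, 22% of 887 promoters held TTTGAA, and among those higher in the NaCl/HI group 11.1% of 524. Both motifs were searched after the mitosis genes had been seen to lead, and a match is a description of letters only.

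Pttg1 encodes securin, which holds back the separation of sister chromatids. Its values in the LPS samples were 9.98, 10.05, 9.73, 10.04 and 9.83, and those of the NaCl/HI group ran from 8.90 over a median of 9.12 to 9.16. The groups did not overlap, and the difference was 0.85 ± 0.09 (SE; limma adjusted p = 7.17e-06). The B-type cyclin Ccnb2 stood at 10.84, 10.86, 10.58, 10.90 and 10.68 in the LPS group and between 9.91 and 10.09 (median 9.96) in the NaCl/HI group. Its difference was 0.79 ± 0.08 (adjusted p = 7.17e-06). Cdc20, the activator of the anaphase-promoting complex, stood at 10.62, 10.64, 10.41, 10.84 and 10.40 against 9.75 to 9.98 (median 9.91), a difference of 0.70 ± 0.08 (adjusted p = 1.43e-05). For both genes the lowest LPS sample lay well above the highest NaCl/HI sample. The proliferation marker Mki67 and the topoisomerase Top2a, named after their values had been seen, differed by 0.42 ± 0.10 and 0.56 ± 0.08 (adjusted p = 0.00768 and 0.000266).

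Histone genes package newly made DNA. Of 32 measured, 28 (87.5%, 22 by the permutation test) were higher in the LPS group and 0 in the NaCl/HI group, with a median difference of 0.58, and in 25 the groups did not overlap. The list mean lay between 10.10 and 10.49 in the LPS group and between 9.45 and 9.91 in the NaCl/HI group. The nucleosome protein gene H3c1 stood at 11.43, 11.48, 11.33, 11.67 and 11.29 in the LPS samples and between 10.27 and 10.79 (median 10.73) in the NaCl/HI samples, a difference of 0.81 ± 0.12 (adjusted p = 0.000185). H2ac12 and Hist2h3c2, which encode core histones, each differed by 0.81, with SE of 0.15 and 0.14 (adjusted p = 0.00164 and 0.000971). Copies of histone genes are nearly identical, so the counting could have split reads between them and single members are uncertain.

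Few genes of DNA replication and the G1/S step were called. Of 58 measured, 3 (5.17%) were higher in the LPS group, E2f8, Tk1 and Rfc5, and 1 (1.72%), the chromatin remodeller Hells, was higher in the NaCl/HI group. The median difference was 0.05, close to that of all genes. Without LPS replicate 4 or NaCl/HI replicate 3, 0 members were called higher in the LPS group, and Hells lost its call without LPS replicate 1, 2, 3 or 5 or NaCl/HI replicate 3 (adjusted p 0.058 to 0.0755). The count of 1 became 7 without LPS replicate 4, 3 without Sham replicate 1 and 2 without NaCl/HI replicate 4. LPS replicate 4 also had the highest list mean, at 10.09 against 9.74 to 9.82 in the other LPS samples and 9.73 to 9.86 in the NaCl/HI samples. The permutation test called 0 higher in the LPS group. The clamp protein Pcna, named after its value had been seen, ranged from 12.02 to 12.31 in the LPS group and from 11.90 to 12.38 in the NaCl/HI group (difference -0.05 ± 0.08, adjusted p = 0.726). Against Sham, the median difference of the list was 0.18 in the LPS group and 0.17 in the NaCl/HI group.

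**Figure D2:**
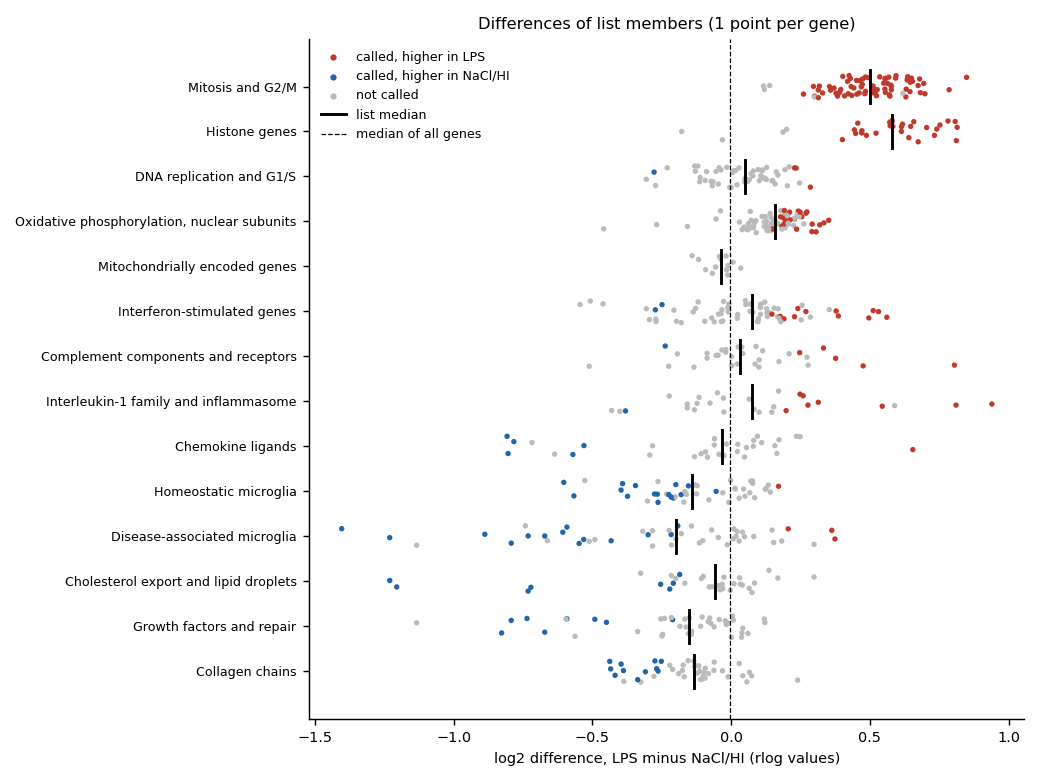
Each point is 1 gene of a list, placed by its log2 difference (LPS minus NaCl/HI), with red and blue for genes called higher in the LPS and the NaCl/HI group and gray for genes not called. Black bars are list medians and the dashed line is the median of all genes. Mitosis and histone genes lie to the right, with medians of 0.50 and 0.58, while G1/S genes lie around 0, with a median of 0.05.

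Interferon-stimulated genes act against viruses and intracellular bacteria. Of 68 measured, 12 (17.6%) were higher in the LPS group and 2 (2.94%) in the NaCl/HI group, with a median difference of 0.07. Without LPS replicate 1, and likewise by the permutation test, 8 were higher in the LPS group. Leading were guanylate-binding proteins, GTPases that act on intracellular bacteria. Their genes are close paralogs, so single members are uncertain. The 150 bases before the start of 3 of them are shown because all 6 measured guanylate-binding protein genes (100%) held the core of the interferon-stimulated response element, GAAANNGAA on either strand, in the window searched. The sequences are RefSeq GRCr8 on the plus strand, with the element in capitals.
Gbp2, chr2:234005577-234005726: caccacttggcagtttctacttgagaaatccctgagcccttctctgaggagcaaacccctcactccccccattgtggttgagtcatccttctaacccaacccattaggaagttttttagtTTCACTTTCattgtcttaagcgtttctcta
Gbp4, chr2:233978336-233978485: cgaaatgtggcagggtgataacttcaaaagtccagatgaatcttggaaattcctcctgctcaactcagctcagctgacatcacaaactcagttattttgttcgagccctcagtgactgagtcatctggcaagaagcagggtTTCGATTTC
Gbp7, chr2:233948739-233948888: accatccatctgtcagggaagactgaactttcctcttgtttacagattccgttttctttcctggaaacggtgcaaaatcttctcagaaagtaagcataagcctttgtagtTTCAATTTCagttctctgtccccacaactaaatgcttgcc
The core was in 61.8% of 55 promoters of interferon-stimulated genes and in 7.7% of the promoters of all genes compared. It was in 8.79% of the promoters of genes higher in the LPS group and in 6.3% of those of genes higher in the NaCl/HI group.

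Gbp2 stood at 11.40, 11.02, 10.79, 11.20 and 10.92 in the LPS samples and between 10.35 and 10.72 (median 10.46) in the NaCl/HI samples, with no overlap (difference 0.56 ± 0.09, adjusted p = 0.000398). Gbp4 and Gbp7 differed by 0.53 ± 0.07 and 0.51 ± 0.08 (adjusted p = 0.000118 and 0.000231), and Ifi27, a mitochondrial interferon-induced protein, by 0.50 ± 0.09 (adjusted p = 0.000971). These 4 genes differed from Sham by 0.52 to 0.63 in the LPS group and by 0.01 to 0.07 in the NaCl/HI group. Over all 68 interferon-stimulated genes, the median difference from Sham was 0.19 and 0.07 in these groups. Against Sham, 21 were called higher and 1 lower in the LPS group, and 0 in the NaCl/HI group. At an unadjusted p under 0.05 by limma, 21 were higher and 1 lower in the NaCl/HI group. The list mean ran from 8.85 to 9.19 in the LPS group and from 8.84 to 9.10 in the NaCl/HI group. It averaged 8.84 in Sham. Ifit1, which binds foreign RNA, was lower in the LPS group (-0.27 ± 0.08, adjusted p = 0.0411), a call lost without LPS replicate 1, 2 or 5, LPS/HI replicate 2 or NaCl/HI replicate 2, 3, 4 or 6 (adjusted p 0.0528 to 0.118). Herc6, a ligase for the interferon-induced modifier ISG15, was lower too (-0.25 ± 0.06, adjusted p = 0.0145). The antiviral genes Ifit3 and Isg15, named after their values had been seen, differed by -0.46 ± 0.19 and -0.31 ± 0.17 and were not called (adjusted p = 0.134 and 0.28).

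Among receptors for bacterial products, 8 of 32 genes (25%) were higher in the LPS group and 0 in the NaCl/HI group. The count was 5 without any 1 of LPS replicates 1, 2, 4 and 5, NaCl/HI replicates 3, 5 and 6 and LPS/HI replicates 2 and 6, and also by the permutation test. Tlr1, the partner of TLR2 in binding bacterial lipoproteins, stood at 9.76, 9.70, 9.49, 10.01 and 9.53 in the LPS group and between 8.73 and 9.27 (median 8.89) in the NaCl/HI group. The groups did not overlap, and the difference was 0.77 ± 0.10 (adjusted p = 3.62e-05). Ly86, which encodes the MD-1 partner of RP105, differed by 0.37 ± 0.05 (adjusted p = 0.000156). The LPS receptor genes themselves, named after their values had been seen, were not called, with differences of 0.11 ± 0.07 for Tlr4 (adjusted p = 0.336) and 0.12 ± 0.15 for Cd14 (adjusted p = 0.693).

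Of 32 NF-kB members and feedback genes, 6 (18.8%, 3 by the permutation test) were higher in the LPS group and 0 in the NaCl/HI group. Bcl3, a nuclear partner of NF-kB p50 and p52, stood between 8.61 and 8.89 in the LPS group and between 7.98 and 8.26 in the NaCl/HI group (difference 0.59 ± 0.10, adjusted p = 0.000714). Birc3, an inhibitor of apoptosis that acts in the same pathway, differed by 0.41 ± 0.09 (adjusted p = 0.00738). Socs3, the feedback inhibitor of STAT3, differed by 0.55 ± 0.15 (adjusted p = 0.0265), and its adjusted p rose to between 0.0536 and 0.0652 without LPS replicate 2, 4 or 5 or NaCl/HI replicate 2 or 3.

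In the interleukin-1 and inflammasome list, 8 of 28 genes (28.6%, 3 by the permutation test) were higher in the LPS group and 1 (3.57%) in the NaCl/HI group. Il18rap, a subunit of the IL-18 receptor, stood at 9.02, 9.05, 8.84, 9.09 and 9.61 against 7.93 to 8.43 (median 8.16), a difference of 0.94 ± 0.13 (adjusted p = 0.000118). Mefv encodes pyrin, a sensor that assembles an inflammasome. It stood at 9.52, 9.51, 9.40, 9.91 and 9.79 against 8.68 to 8.94 (median 8.82), a difference of 0.81 ± 0.09 (adjusted p = 1.39e-05). Both genes separated the groups without overlap. The cytokine gene Il1b stood at 12.12, 12.33, 12.33, 12.28 and 12.51 in the LPS group and reached from 11.49 over a median of 11.76 to 12.21 in the NaCl/HI group, so that the highest NaCl/HI sample overlapped with the LPS group (difference 0.54 ± 0.12, adjusted p = 0.00574). The alarmin Il33 was higher in the NaCl/HI group (-0.38 ± 0.08, adjusted p = 0.00273), where it lay between 11.18 and 11.60, within 0.07 of Sham on average, while the LPS group lay between 10.81 and 11.09. The cytokine genes Tnf and Il6, named after their values had been seen, were not called (differences 0.03 ± 0.08 and -0.10 ± 0.08, adjusted p = 0.851 and 0.502).

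Complement genes were led by C3, the central component, and by the chains of C1q, which starts the classical pathway. Of 32 genes, 5 (15.6%, 3 by the permutation test) were higher in the LPS group and 1 (3.12%), the integrin chain Itgb2, was higher in the NaCl/HI group, a call lost without LPS replicate 1, 2, 4 or 5 or NaCl/HI replicate 1, 2, 3 or 5 (adjusted p 0.0504 to 0.1). C3 stood at 12.88, 12.91, 12.17, 12.76 and 12.01 in the LPS samples and between 11.10 and 12.13 (median 11.78) in the NaCl/HI samples, so the lowest LPS sample overlapped with the NaCl/HI group. Its difference was 0.80 ± 0.17 (adjusted p = 0.00507). It lay 1.52 above Sham in the LPS group and 0.71 above Sham in the NaCl/HI group. C1qc, C1qb and C1qa differed by 0.48 ± 0.10, 0.38 ± 0.08 and 0.33 ± 0.08 (adjusted p = 0.00405, 0.00494 and 0.0119), and none of the 3 overlapped between the groups.

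Antigen presentation differed in few genes. In the MHC class I list, 5 of 25 genes (20%) were higher in the LPS group, among them the peptide loading chaperone Tapbp (0.32 ± 0.07, adjusted p = 0.00404) and the proteasome activator Psme1 (0.27 ± 0.06, adjusted p = 0.00458). The count was 2 without LPS replicate 1, 2 or 4 and 3 if LPS/HI replicate 2 or NaCl/HI replicate 2, 4 or 5 was left out, and the permutation test called 1. In the MHC class II list, 3 of 18 genes (16.7%, 1 by the permutation test) were higher in the LPS group, led by Ifi30, a lysosomal thiol reductase (0.35 ± 0.06, adjusted p = 0.000398), and 1 (5.56%), RT1-DOa, was higher in the NaCl/HI group (-0.32 ± 0.07, adjusted p = 0.00804). The class II count of 1 rose to as many as 3 when single libraries were left out. Rat MHC genes have close copies, so RT1-DOa is uncertain.

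Nuclear genes for oxidative phosphorylation were higher in the LPS group for 22 of 76 members (28.9%) and in the NaCl/HI group for 0, with a median difference of 0.16. The cytochrome oxidase subunits Cox6c and Cox7b differed by 0.32 ± 0.07 and 0.31 ± 0.07 (adjusted p = 0.00808 and 0.0122). The count depended on single libraries, and was 7 without LPS replicate 2 or 4, 14 without LPS replicate 1, and 13 or 12 if NaCl/HI replicate 2 or 4 was left out. It was 10 by the permutation test and 9 in a limma fit of the 11 samples. Of the 13 mitochondrially encoded genes, 0 were called in either direction at the adjusted p, and their median difference was -0.04. Cytosolic ribosomal protein genes were higher in the LPS group for 3 of 87 (3.45%) and in the NaCl/HI group for 0, beside 5.32% and 3.66% of all genes, and the first count ranged from 0 to 8 when single libraries were left out and was 0 by the permutation test.

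Of 36 genes of cholesterol and fatty acid synthesis, 7 (19.4%) were higher in the LPS group, among them the mevalonate kinase Mvk (0.33 ± 0.05, adjusted p = 0.000417) and Acat2, which makes acetoacetyl-CoA (0.29 ± 0.05, adjusted p = 0.000992). The count was 3 without LPS replicate 4 or by the permutation test and 4 without LPS replicate 1 or NaCl/HI replicate 2, 3, 5 or 6. Fatty acid synthase (Fasn) was the 1 member higher in the NaCl/HI group (-0.18 ± 0.05, adjusted p = 0.0212), and its call was lost without LPS replicate 1 or NaCl/HI replicate 1 (adjusted p = 0.0599 and 0.0525).

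**Figure D3:**
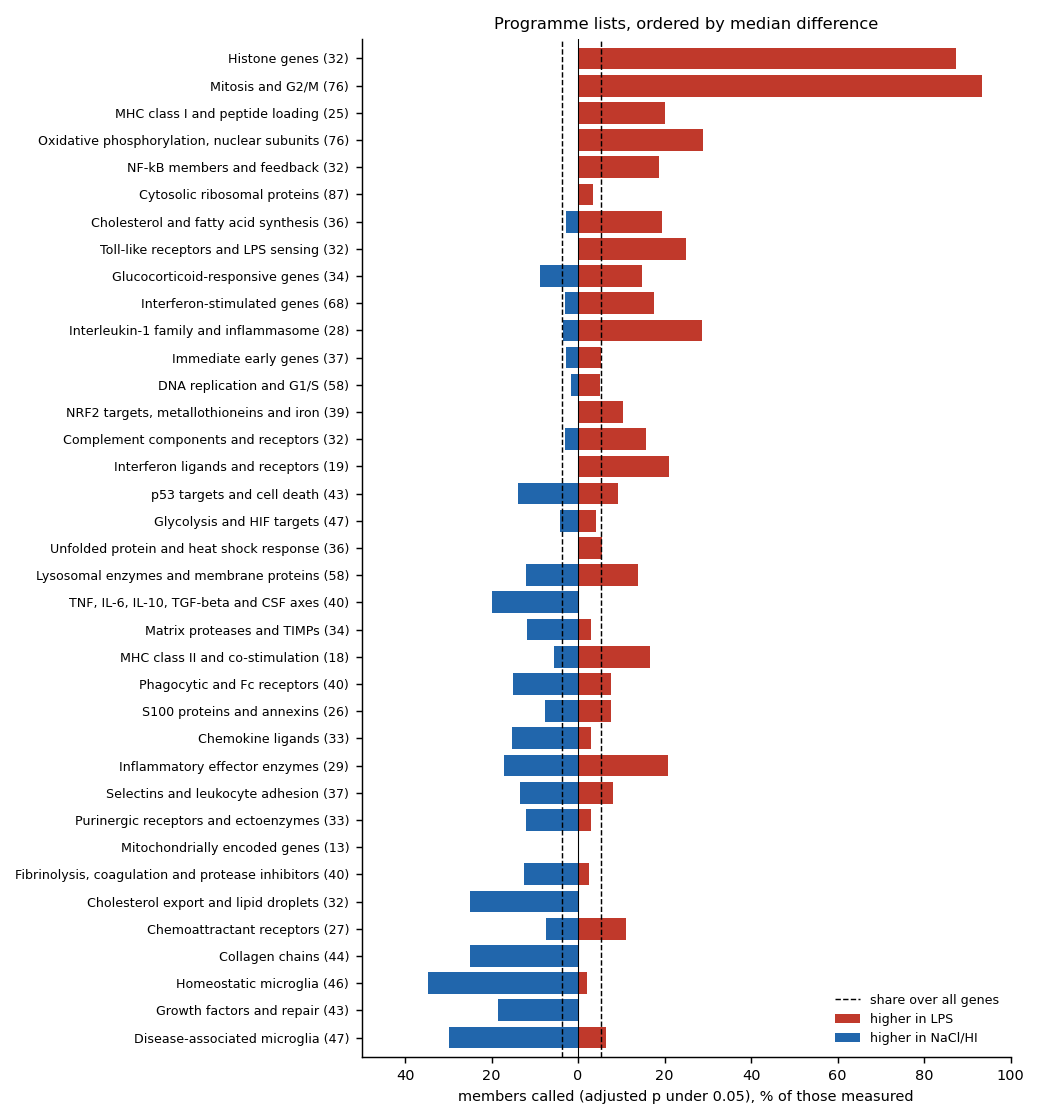
Bars give the percentage of measured members of each programme list called higher in the LPS group (right) and in the NaCl/HI group (left), with the number measured in parentheses and lists ordered by median difference. Dashed lines mark the shares over all genes, 5.32% and 3.66%. Mitosis (93.4%) and histone genes (87.5%) stand far to the right, and the homeostatic (34.8%) and disease-associated (29.8%) microglia lists reach farthest to the left.

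The 3 genes over the fold threshold on the LPS side were LOC24906, Plac8 and Arl5c. LOC24906 stood at 8.85, 8.47, 8.02, 9.72 and 9.62 in the LPS samples and between 7.17 and 7.60 (median 7.51) in the NaCl/HI samples, a difference of 1.47 ± 0.25 (2.78-fold, adjusted p = 0.000612). Plac8, a small cysteine-rich protein of myeloid cells, stood at 11.78, 11.39, 11.21, 11.96 and 11.53 against 10.16 to 10.57 (median 10.27), a difference of 1.26 ± 0.13 (2.39-fold, adjusted p = 7.17e-06). In both genes all LPS samples lay above all NaCl/HI samples, and LPS replicates 4 and 5 of LOC24906 lay highest. Arl5c, a small GTPase of the Arf-like family, stood at 7.37, 8.04, 7.84, 7.95 and 8.01 against 6.28 to 7.39 (median 6.76), with overlap of a single sample on each side (1.06 ± 0.22, 2.09-fold, adjusted p = 0.00366). Plac8 is also a marker of monocytes. Of the 18 monocyte markers measured, 1 (5.56%) was higher in the LPS group, Plac8 itself, and 1 (5.56%) in the NaCl/HI group, Fn1. The list mean overlapped between the groups (9.06 to 9.31 and 8.97 to 9.38).

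Several further genes with separated groups on the LPS side encode receptors. Adgrg5, an adhesion G protein-coupled receptor, differed by 0.93 ± 0.12 (adjusted p = 4.02e-05). Cxcr3, the receptor of interferon-induced chemokines, stood between 4.89 and 5.55 in the LPS group and between 4.15 and 4.49 in the NaCl/HI group (0.82 ± 0.13, adjusted p = 0.000414). Adgb, which encodes androglobin, differed by 0.82 ± 0.22 (adjusted p = 0.0207) and lost its call without LPS replicate 4 (adjusted p = 0.0656) or 5 (0.0619). LOC120097726 differed by 0.88 ± 0.16 (adjusted p = 0.00104). Hcar2, a receptor for hydroxybutyrate, and Tspo, a mitochondrial outer membrane protein used as an imaging target for neuroinflammation, were named after their values had been seen. Hcar2 stood between 10.12 and 10.64 against 9.41 to 9.85, a difference of 0.80 ± 0.09 (adjusted p = 1.15e-05). Tspo stood at 11.05, 11.17, 10.63, 11.24 and 10.62 against 9.82 to 10.48 (median 10.17), a difference of 0.78 ± 0.13 (adjusted p = 0.000405).

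On the NaCl/HI side, the genes over the fold threshold encode enzymes, a lipid carrier and a channel, and RGD1559482 is given by symbol only. Lpl, the lipase that releases fatty acids from lipoproteins, was the 1 of the 9 genes whose groups did not overlap. It stood at 10.50, 10.40, 10.62, 10.31 and 9.75 in the LPS samples and between 10.73 and 11.86 (median 11.71) in the NaCl/HI samples (-1.23 ± 0.18, 2.35-fold, adjusted p = 0.000207). It lay 0.54 below Sham in the LPS group and 0.69 above Sham in the NaCl/HI group. Galnt6, which starts mucin-type O-glycosylation, stood at 5.96, 6.05, 6.47, 5.84 and 5.61 against 6.24 to 7.90 (median 7.40), a difference of -1.29 ± 0.22 (2.45-fold, adjusted p = 0.000617). Kcnn4, a calcium-activated potassium channel, stood at 6.96, 6.81, 6.84, 6.57 and 5.84 against 6.63 to 8.46, a difference of -1.23 ± 0.26 (2.34-fold, adjusted p = 0.0047). In Galnt6 and Kcnn4 the lowest NaCl/HI sample, replicate 4, lay among the LPS samples.

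Others of these genes varied widely among the NaCl/HI samples. Mmp12, the macrophage elastase, stood at 3.67, 3.60, 4.27, 3.57 and 3.17 in the LPS group and between 3.74 and 6.38 (median 5.04) in the NaCl/HI group, a difference of -1.40 ± 0.36 (2.65-fold, adjusted p = 0.019). Acod1, the enzyme that makes itaconate, stood at 4.46, 3.95, 4.36, 3.98 and 2.79 against 4.02 to 6.06 (median 5.21), a difference of -1.30 ± 0.35 (2.46-fold, adjusted p = 0.025). In both genes NaCl/HI replicates 1 to 3 were highest, replicate 4 was lowest and LPS replicate 5 was the lowest LPS sample. Hk3, a hexokinase of myeloid cells, differed by -1.28 ± 0.35 (2.43-fold, adjusted p = 0.0245), and the fatty acid binding protein gene Fabp4 by -1.21 ± 0.34 (2.31-fold, adjusted p = 0.0281). RGD1559482 differed by -1.24 ± 0.35 (2.37-fold, adjusted p = 0.029).

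The calls of Mmp12, Acod1, Hk3, Fabp4 and RGD1559482 rested on few libraries. Without LPS replicate 5 the adjusted p was 0.0521 for Mmp12, 0.0808 for Acod1, 0.0643 for Hk3, 0.0836 for Fabp4 and 0.0862 for RGD1559482. Acod1 and Fabp4 lost the call without LPS replicate 2 or NaCl/HI replicate 1, 2 or 3, with adjusted p between 0.0511 and 0.0665, which Hk3 also did without LPS replicate 2 or 4 or NaCl/HI replicate 2 or 3 (adjusted p 0.053 to 0.068). RGD1559482 lost it without LPS replicate 4 or NaCl/HI replicate 1, 2 or 3 (adjusted p 0.0561 to 0.0674). Fabp4 also lost it without LPS replicate 4 (adjusted p = 0.0623). The inducible nitric oxide synthase Nos2, named after its value had been seen, was not called (-0.30 ± 0.31, adjusted p = 0.624).

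**Figure D4:**
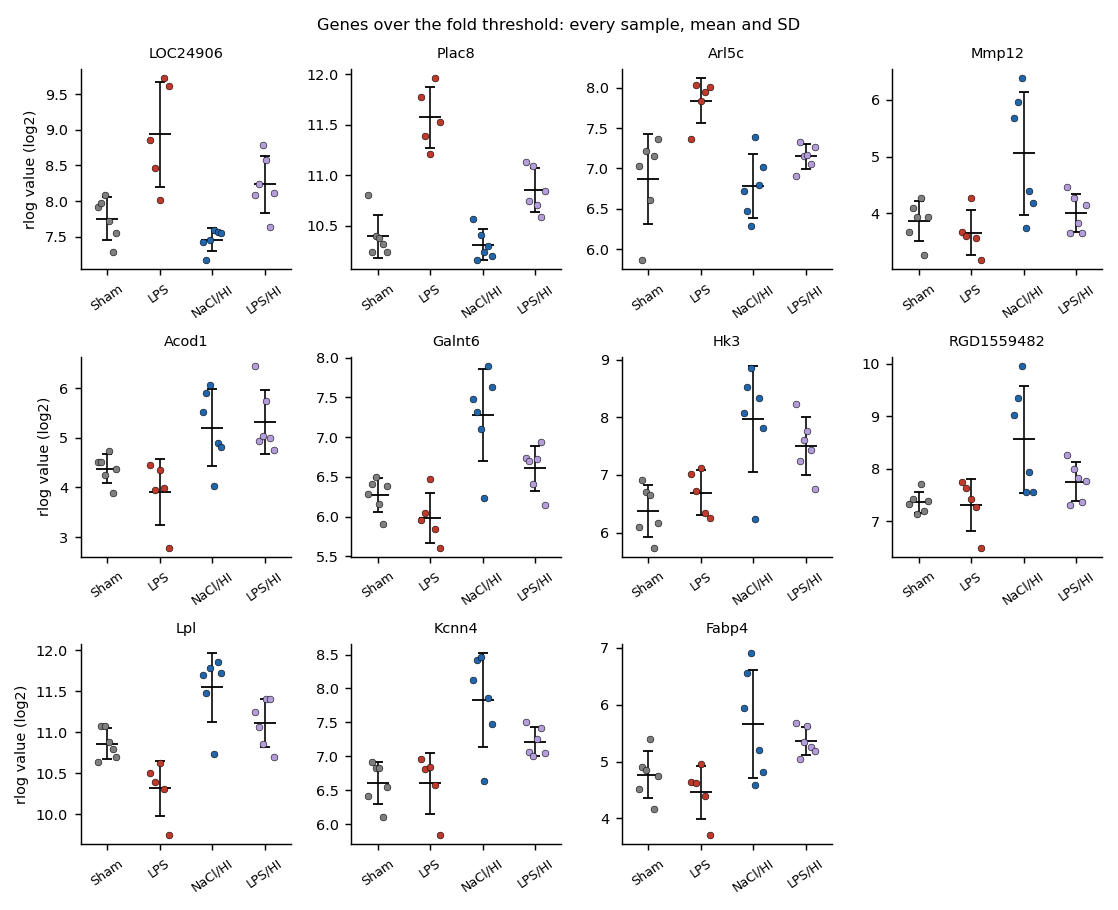
Every point is 1 sample, with the rlog value (log2) on the y axis and the 4 groups on the x axis, for 11 of the called genes that differed by more than 2-fold. Horizontal bars are group means and error bars are SD, and LPS/HI is shown for reference. Plac8 and LOC24906 are separated between LPS and NaCl/HI, while Mmp12 and Acod1 spread over a wide range within the NaCl/HI group.

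The disease-associated microglia list, which collects genes of phagocytic microglia around dying cells and myelin, had 14 of 47 members (29.8%) higher in the NaCl/HI group and 3 (6.38%) higher in the LPS group, with a median difference of -0.20. Gpnmb, a membrane glycoprotein of lysosome-rich macrophages, stood at 12.68, 12.77, 12.84, 12.46 and 12.28 in the LPS group and between 12.51 and 13.84 (median 13.49) in the NaCl/HI group (-0.79 ± 0.17, adjusted p = 0.005). It lay 1.02 above Sham in the NaCl/HI group and 0.23 above Sham in the LPS group. Lgals3, the galectin that binds damaged lysosomes, differed by -0.89 ± 0.28 (adjusted p = 0.0467) and was not called in 18 of the 23 fits that left out 1 library, with adjusted p up to 0.124 without LPS replicate 4. Spp1, osteopontin, named after its value had been seen, spanned 10.15 to 13.65 in the NaCl/HI group and 10.17 to 11.62 in the LPS group and was not called (-1.13 ± 0.42, adjusted p = 0.0944). The 3 members higher in the LPS group were the sialic acid receptor Cd22 (0.37 ± 0.11, adjusted p = 0.042), the lysosomal protease Ctsz (0.36 ± 0.07, adjusted p = 0.00284) and the adaptor Tyrobp (0.21 ± 0.06, adjusted p = 0.0233). Cd22 lost its call in 10 of those fits (adjusted p up to 0.127 without LPS replicate 1), and Tyrobp without LPS replicate 1 or 2 or NaCl/HI replicate 2 (adjusted p 0.0507 to 0.0694). The list mean ran from 10.63 to 10.95 in the LPS group and from 10.73 to 11.33 in the NaCl/HI group, where replicate 4 was lowest. The count of 14 was 8 without LPS replicate 4 or 5 and 9 without LPS replicate 1, 2 by the permutation test and 8 in a fit of the 11 samples.

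Of 32 genes of cholesterol export and lipid storage, 8 (25%), Lpl and Fabp4 among them, were higher in the NaCl/HI group and 0 in the LPS group. The other 24 were not called, and the median difference was -0.06. The permutation test called 2 and a fit of the 11 samples 3. Fabp3, a carrier of fatty acids, stood at 6.44, 6.47, 6.64, 6.37 and 6.29 in the LPS samples and between 6.90 and 7.38 (median 7.17) in the NaCl/HI samples, with no overlap (-0.72 ± 0.09, adjusted p = 3.62e-05). It lay 0.52 above Sham in the NaCl/HI group and 0.20 below Sham in the LPS group. Its relative Fabp5 differed by -0.73 ± 0.22 (adjusted p = 0.0365) and lost the call in 7 of the 23 fits that left out 1 library, with adjusted p up to 0.109 without LPS replicate 5. The count for the list was 4 if LPS replicate 4 or 5 or NaCl/HI replicate 1 was left out, and 5 if NaCl/HI replicate 2 was left out.

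Homeostatic microglia genes include receptors and regulators of the resting state. Of 46 measured, 16 (34.8%) were higher in the NaCl/HI group and 1 (2.17%), the transcription factor Spi1, was higher in the LPS group (0.17 ± 0.05, adjusted p = 0.0236), with a median difference of -0.14. Spi1 lost its call without LPS replicate 1, 2 or 4 or NaCl/HI replicate 3 (adjusted p 0.0511 to 0.0744). Bin1, which shapes membranes in endocytosis, stood between 12.76 and 13.05 in the LPS group and between 13.23 and 13.35 in the NaCl/HI group, with no overlap (-0.39 ± 0.06, adjusted p = 0.000365). Nav3, a microtubule-binding protein, and Crybb1, a crystallin read in microglia of the young brain, differed by -0.40 ± 0.08 and -0.57 ± 0.12 (adjusted p = 0.00381 and 0.005). The median difference of the list from Sham was -0.16 in the LPS group, where 19 members were lower and 4 higher than Sham, and -0.04 in the NaCl/HI group. The count of 16 was between 7 and 10 without LPS replicate 1, 2, 4 or 5 or NaCl/HI replicate 1 or 4, with the lowest count without LPS replicate 4, and it was 6 by the permutation test and 8 in a fit of the 11 samples.

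Among cytokine axes other than interleukin-1, 8 of 40 genes (20%, 4 by the permutation test) were higher in the NaCl/HI group and 0 in the LPS group. Csf1, the growth factor of microglia, stood at 11.05, 11.05, 11.40, 10.92 and 10.99 against 11.23 to 11.96 (median 11.70), a difference of -0.61 ± 0.12 (adjusted p = 0.00184). The receptor chain Il6st and the TGF-beta receptor Tgfbr1 differed by -0.46 ± 0.07 and -0.37 ± 0.09 (adjusted p = 0.000465 and 0.0103). Smad7, a feedback inhibitor of TGF-beta signalling, stood between 10.45 and 10.75 in the LPS group and between 10.91 and 10.98 in the NaCl/HI group (-0.30 ± 0.05, adjusted p = 0.000916). These 4 genes lay between 0.34 and 0.55 below Sham in the LPS group, and within 0.11 of Sham in the NaCl/HI group.

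Of 33 chemokine ligands, 5 (15.2%) were higher in the NaCl/HI group and 1 (3.03%) was higher in the LPS group. Ccl7 and Ccl2 attract monocytes through CCR2. Ccl7 stood at 9.37, 9.36, 9.80, 9.25 and 9.69 in the LPS group and between 10.09 and 10.42 (median 10.31) in the NaCl/HI group, with no overlap (-0.80 ± 0.12, adjusted p = 0.000302). The eosinophil attractant Ccl24 stood at 8.71, 8.88, 8.93, 8.99 and 8.95 against 9.44 to 9.87 (median 9.68), also without overlap (-0.78 ± 0.11, adjusted p = 9.22e-05). Both genes lay within 0.06 of Sham in the NaCl/HI group and at least 0.72 below Sham in the LPS group. The ligands of CCR4 showed another pattern. Ccl17 stood at 2.79, 2.64, 2.81, 2.69 and 2.60 against 2.82 to 4.05 (median 3.60), a difference of -0.81 ± 0.16 (adjusted p = 0.003), and lay 0.50 above Sham in the NaCl/HI group. Ccl22 differed by -0.57 ± 0.13 (adjusted p = 0.00724). The mean levels of Ccl17 and Ccl22 stood at percentiles 19.5 and 15.2 of all genes. Cxcl17, a chemokine of mucosal tissue, was the 1 ligand higher in the LPS group, at 8.21 to 8.73 against 7.59 to 8.08 (0.65 ± 0.11, adjusted p = 0.000754). With the lowest 25% of genes left out, 3 ligands were higher in the NaCl/HI group, and the permutation test called 2.

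Growth factors and repair genes were higher in the NaCl/HI group for 8 of 43 members (18.6%) and in the LPS group for 0. Their median difference was -0.15. Against Sham, 0 members were higher and 9 lower in the LPS group, where the median difference was -0.07. In the NaCl/HI group 1 was higher than Sham and 0 lower, with a median of 0.02. Pdgfa, a growth factor for oligodendrocyte precursors, stood at 7.33, 7.38, 7.54, 7.01 and 6.69 against 7.52 to 8.22 (median 7.96), a difference of -0.74 ± 0.17 (adjusted p = 0.0097). The matrix protein Fn1 differed by -0.83 ± 0.23 (adjusted p = 0.0261), with values of 13.92 to 14.38 in NaCl/HI replicates 1 to 3 and 12.84 to 12.98 in replicates 4 to 6, and it lost its call without LPS replicate 2, 4 or 5 or NaCl/HI replicate 1, 2 or 3 (adjusted p 0.0544 to 0.0717). Without LPS replicate 4 the count for the list was 5, and it was 2 by the permutation test. Collagen chains were higher in the NaCl/HI group for 11 of 44 (25%) and in the LPS group for 0, led by Col12a1 and Col6a3 (-0.44 ± 0.08 and -0.43 ± 0.09, adjusted p = 0.00123 and 0.00287). Their count was 4 without any 1 of LPS replicates 4 and 5 and NaCl/HI replicates 1 and 5, 5 without LPS replicate 2, 6 if NaCl/HI replicate 2 was left out and 7 without LPS replicate 3. The permutation test called 0 of the 44 and a fit of the 11 samples 5. Against Sham, 1 collagen was higher and 5 lower in the LPS group (median -0.11). In the NaCl/HI group 0 were called against Sham (median 0.09).

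Markers of matrix-forming cells overlap with the collagens. Of 19 markers of fibroblasts and meninges, 8 (42.1%) were higher in the NaCl/HI group and 0 in the LPS group. The list mean lay between 8.35 and 8.67 in the LPS group and between 8.55 and 8.90 in the NaCl/HI group. The count was 4 if LPS replicate 4 or 5 or NaCl/HI replicate 1 was left out, and 5 if LPS replicate 2 or NaCl/HI replicate 3 or 5 was left out, 4 in a fit of the 11 samples and 1 by the permutation test. The list shares collagen and matrix genes with those above. Of 20 oligodendrocyte markers, 2 (10%) were higher in the NaCl/HI group, the tight junction gene Cldn11 and the transcription factor Myrf, but the median difference was -0.41. The myelin genes Mag and Mbp differed by -1.27 ± 0.52 and -0.98 ± 0.40 and were not called (adjusted p = 0.136 and 0.132). The list mean ran from 7.82 to 8.15 in the LPS group and from 7.97 to 9.28 in the NaCl/HI group, where replicate 6 was highest. What part these cells had in the differences of the collagens and of the lipid genes was not tested.

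Of 15 markers of border-associated macrophages, 4 (26.7%, 1 by the permutation test) were higher in the NaCl/HI group and 1 (6.67%) in the LPS group. The endocytic adaptor Dab2 stood between 12.72 and 13.08 in the LPS group and between 13.33 and 13.42 in the NaCl/HI group (-0.44 ± 0.07, adjusted p = 0.000207). The hyaluronan receptor Lyve1 differed by -0.57 ± 0.11 (adjusted p = 0.00285), and lay 0.83 below Sham in the LPS group and 0.26 below Sham in the NaCl/HI group. Among 29 neutrophil genes, 0 were higher in the LPS group and 1 (3.45%) was higher in the NaCl/HI group. That gene, the granule protein gene Ngp (-0.86 ± 0.23, adjusted p = 0.0207), lost its call without LPS replicate 2 (adjusted p = 0.063) or 4 (0.0609). Among 24 T, NK and B cell genes, 2 (8.33%) were higher in the LPS group and 1 (4.17%) in the NaCl/HI group. The 2 were the immunoglobulin chain Ighm (0.61 ± 0.16, adjusted p = 0.0195) and the B cell receptor chain Cd79b (0.49 ± 0.10, adjusted p = 0.00269). Ighm lost its call without LPS replicate 1, 2 or 4 (adjusted p 0.0506 to 0.0691). In the lists for ependyma, erythrocytes, cerebellum and brainstem regions and the pineal gland, 0 genes were called in either direction. Markers of cortex and hippocampus had 1 of 10 (10%) higher in the LPS group. That count was 0 without LPS replicate 2, by the permutation test and in a fit of the 11 samples.

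**Figure D5:**
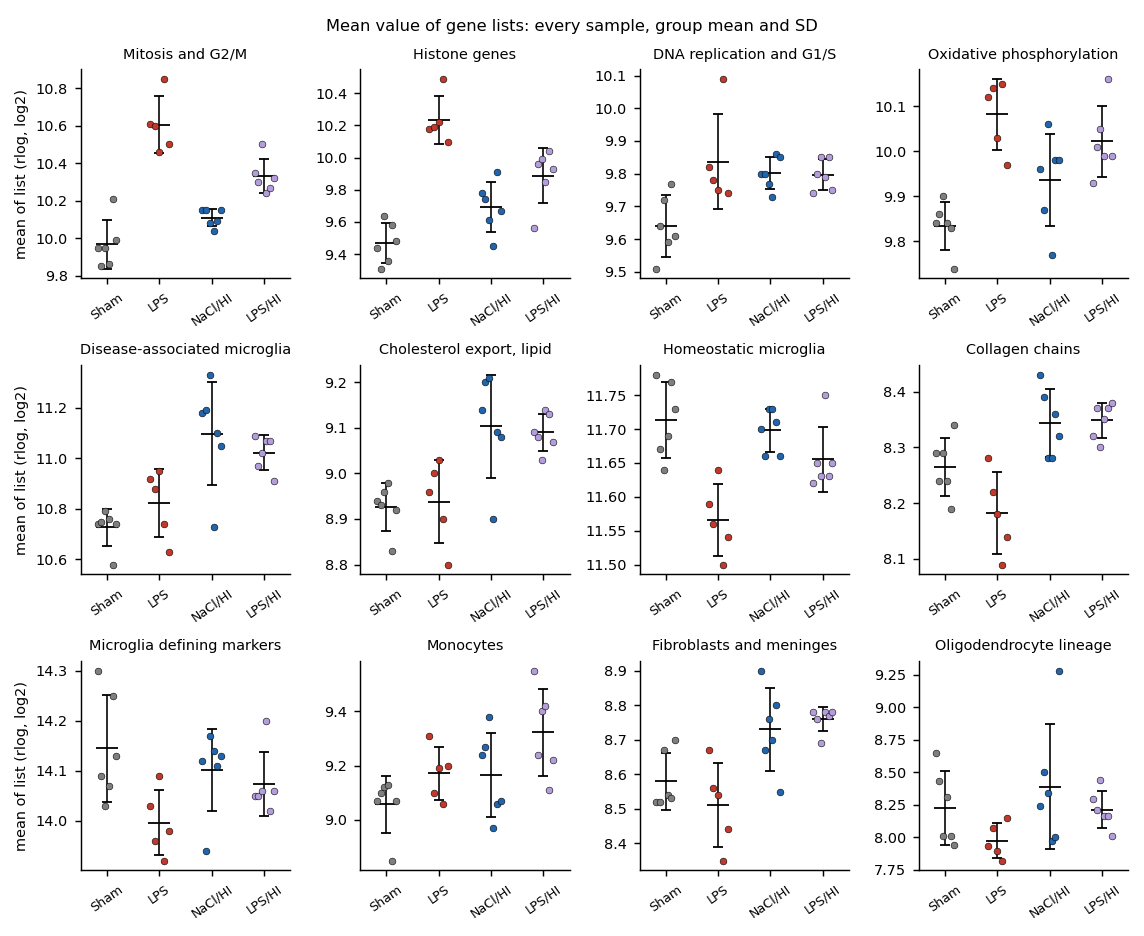
Every point is the mean rlog value (log2) of a gene list in 1 sample, for 12 lists and 4 groups, with bars for the group mean and SD. Mitosis and histone lists separate LPS from NaCl/HI without overlap, the G1/S list overlaps, and NaCl/HI replicate 6 stands apart in the oligodendrocyte list.

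The ATP receptor P2rx7, which triggers release of interleukin-1, was higher in the NaCl/HI group, at 11.55 to 11.99 against 11.11 to 11.52 (-0.53 ± 0.09, adjusted p = 0.000618). Of 33 purinergic genes, 4 (12.1%) were higher in the NaCl/HI group, among them Enpp1, which cleaves extracellular nucleotides (-0.51 ± 0.08, adjusted p = 0.000231), and 1 (3.03%), adenosine kinase (Adk), was higher in the LPS group (0.24 ± 0.05, adjusted p = 0.00526). Among 40 phagocytic and Fc receptors, 6 (15%) were higher in the NaCl/HI group and 3 (7.5%) in the LPS group. The scavenger receptor Lrp1 lay between 15.37 and 15.60 in the LPS group and between 15.70 and 16.17 in the NaCl/HI group (-0.51 ± 0.08, adjusted p = 0.000414). The count of 6 was 2 without LPS replicate 2 and 3 if replicate 1 of either group was left out, and the count of 3 was 1 without LPS replicate 2 or 5. By the permutation test they were 0 and 1.

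Glycolysis and HIF target genes are known to rise in hypoxia. Of 47 measured, 2 (4.26%) were higher in the LPS group, Aldoc and Pfkfb4, and 2 (4.26%) in the NaCl/HI group, Hk3 and Eno2, with a median difference of 0.01. The second count was 5 if NaCl/HI replicate 6 was left out, and 1 if LPS replicate 2, 4 or 5 or NaCl/HI replicate 2 or 3 was. The hypoxia response element core ACGTG was in 55% of their 40 promoters, in 23.1% of all promoters compared, and in 24.4% of those of the genes higher in either group. Of 36 genes of the unfolded protein and heat shock response, 2 (5.56%) were higher in the LPS group and 0 in the NaCl/HI group. Their median difference was 0.00, and the count of 2 was 1 to 3 when single libraries were left out.

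The largest separated differences on the NaCl/HI side also included genes of varied roles. Peg10, an imprinted gene derived from a retrotransposon, stood at 7.63, 7.41, 7.56, 7.79 and 7.46 in the LPS group and between 8.21 and 8.81 (median 8.43) in the NaCl/HI group (-0.88 ± 0.10, adjusted p = 1.43e-05). Pitpnm3, a phosphatidylinositol transfer protein of membranes, stood at 7.52, 7.45, 7.77, 7.30 and 7.32 against 8.19 to 8.51 (median 8.31), a difference of -0.86 ± 0.09 (adjusted p = 7.76e-06). Both genes lay on opposite sides of Sham, 0.51 and 0.61 below it in the LPS group and 0.37 and 0.25 above it in the NaCl/HI group. Spata31d1b, Serpinb8 and Ankrd55 differed by -0.81 ± 0.10, -0.81 ± 0.21 and -0.75 ± 0.12 (adjusted p = 3.62e-05, 0.0209 and 0.000336), and Serpinb8, a protease inhibitor, lost its call without LPS replicate 5 (adjusted p = 0.0587). Cldn11, which belongs to the oligodendrocyte markers, stood at 9.90 in NaCl/HI replicate 6 and between 8.25 and 8.51 in the other 5, and differed by -0.88 ± 0.23 (adjusted p = 0.0205). Its call was lost without LPS replicate 2 (adjusted p = 0.0506) or 4 (0.0673).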

How the data were processed

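RNA of microglia from rats operated on at postnatal day 7 was sequenced in 23 samples of 4 groups. Of these, 5 LPS and 6 NaCl/HI samples were compared. Per the submitters' processing notes, FastQC 0.11.9, MultiQC 1.14 and kallisto 0.48.0 on mRatBN7.2 were used. The authors imported the counts with tximport into DESeq2, transformed them to log2 values (rlog) and removed 3 surrogate variables before the deposited table was made. The library kit kept no strand, so overlapping and antisense genes cannot be told apart. For 209 genes, another gene had identical values throughout. Pups were assigned at random over litters, sexes and weights, per the study's methods, but the litter of each sample is not given in the sources used here, so p values measure only the spread between these samples.

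Here limma 3.58.1 (R 4.3.3) was fitted to all samples with a variance trend and no filter. The 3 removed variables lowered the residual degrees of freedom from 19 to 16, and residual variances were rescaled to match. Residuals of the table spanned 16 dimensions. Python 3.11.15 with numpy 2.4.6, pandas 2.3.3 and matplotlib 3.10.9 was used for counts and plots. The fit was also run on simulated data, with independent noise and known factors removed. The surrogate variables of the real table were estimated from its own values, so that run does not show how many calls are false. Replicate numbers were not treated as pairs, since same-numbered samples did not all deviate together. The 54 gene lists (37 programmes, 17 cell types and regions), written by hand from general knowledge, the members and the rules were chosen with earlier results of these data known, and the lists describe and do not test.

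Genes were named by rule if they were called with a fold change above 2, if they were among the 10 largest differences in each direction of called genes without overlap, if they were among the top 4 called members per direction of a programme list (or the 2 with the smallest p where none was called) or the 3 largest differences of a cell list, or if they were microglia markers. The others named are Myrf and those said to be named after their values were seen, and genes given by the rule are not all reported here. Promoters were matched by symbol to RefSeq, at the first start listed. Tried as alternatives were unlowered degrees of freedom, no trend, robust variances, array weights, a fit of the 11 samples alone, the replicate number or the library series as a block, quantile normalization, centring on sample medians, removal of the lowest 25% of genes, a fold threshold of 1.5, an exact permutation test, and the removal of each library in turn.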

Additional observations from a re-analysis of the deposited data

Results flagged for a closer look

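In 19 of 252 groups of 5 or 6 samples (7.54%), from 126 named genes, 1 sample stood apart from the others by Dixon's 95% limit, which chance alone gives in about 5% of groups. NaCl/HI replicate 4 gave 6 of them. Its value for the lipase gene Lpl was 10.73, next to 11.48 in the nearest sample, and that for the macrophage glycoprotein gene Gpnmb was 12.51, next to 13.37. In the same sample Bin1 stood at 13.23, Ctsz at 13.58 and Enpp1 at 7.67, all below the rest of the group, and Birc3 at 8.55, above it.

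NaCl/HI replicate 6 stood apart in 5 genes, with the sulfatase gene Arsb at 13.04, above the nearest value of 12.85, with the myelin junction gene Cldn11 at 9.90, above the nearest value of 8.51, and with Col12a1 at 9.38, P2rx7 at 11.55 and Pfkfb4 at 9.12, below the others. Cxcr3 stood low in NaCl/HI replicate 1 (4.15) and Hells stood high in NaCl/HI replicate 3 (9.85).

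Among the LPS samples, replicate 5 was low for Fabp5 (8.02), replicate 3 was high for Csf1 (11.40), and replicate 1 was high for Enpp1 (7.49) and low for Fasn (12.85). Replicate 4 was high for the E2F family gene E2f8 (10.04) and for LOC120097726 (9.69).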

How the results depend on the processing

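The reported counts were 1081 genes higher in the LPS group, 743 higher in the NaCl/HI group, and 3 and 9 over the fold threshold. With the degrees of freedom not lowered, 1181 genes were higher in the NaCl/HI group. With robust variances, 4 genes passed the fold threshold on the NaCl/HI side. A fit of the 11 samples alone called 606 and 360 genes, with 3 over the fold threshold on the NaCl/HI side. An exact permutation test, whose smallest p is 0.00216 over 462 splits, called 685 and 296 genes with 0 over the fold threshold on the NaCl/HI side, beside 4734 genes at an unadjusted p under 0.05. A fold threshold of 1.5 gave 68 and 55 genes. With the replicate number as a block, 667 and 416 genes were called, 1062 of them among the 1824 reported, and all 12 fold genes were kept. The numbers share no stated source, same-numbered samples correlated between -0.203 and 0.432, and 4 of 5 LPS samples correlated best with the NaCl/HI sample of their own number, replicate 5 being the exception, a hint from the data and not from the design. Under the block, list counts on the LPS side went from 22 to 7 for oxidative phosphorylation, from 7 to 3 for cholesterol and fatty acid synthesis, from 6 to 3 for effector enzymes, from 5 to 3 for MHC class I, from 4 to 2 for interferon ligands and receptors and for NRF2 targets, from 4 to 1 for p53 targets, from 3 to 1 for phagocytic receptors and for disease-associated microglial genes, and from 3 to 0 for ribosomal proteins and for DNA replication and G1/S. On the NaCl/HI side they went from 16 to 9 for homeostatic microglial genes, from 11 to 5 for collagens, from 7 to 3 for lysosomal genes, from 6 to 1 for p53 targets, from 5 to 3 for fibrinolysis and from 5 to 2 for adhesion. Centring each sample on its median moved the share of calls higher in the LPS group from 59.3% to 68.6%, and the permutation test gave 69.8%. Leaving out each library in turn gave 658 to 1223 genes higher in the LPS group, 418 to 784 higher in the NaCl/HI group, 2 to 4 over the fold threshold on the LPS side and 3 to 11 on the NaCl/HI side. Both counts by adjusted p were lowest without LPS replicate 2, and the NaCl/HI count was also 435, 456 and 466 without LPS replicate 4, LPS replicate 5 and NaCl/HI replicate 1. The NaCl/HI fold count was 3 without LPS replicate 5, 4 without NaCl/HI replicate 2 or 3 and 5 without LPS replicate 2, LPS replicate 4 or NaCl/HI replicate 1. Csf1r, not called, turned from 0.08 to -0.05 under quantile normalization (adjusted p = 0.891). No other named gene changed direction, and a call of a named gene was lost 594 times when single libraries were left out. The causes were not tested. Depth is unknown, so no counting error can be given.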

Other observations

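Enzymes of inflammatory mediators were called in both directions. Of 29 measured, 6 (20.7%) were higher in the LPS group and 5 (17.2%) in the NaCl/HI group. Alox5, which starts leukotriene synthesis, and Lta4h, which completes leukotriene B4, were higher in the LPS group (differences 0.59 ± 0.12 and 0.22 ± 0.05, limma adjusted p = 0.00344 and 0.0114). Ptgs1, the constitutive cyclooxygenase, was higher in the NaCl/HI group (-0.45 ± 0.09, adjusted p = 0.00276). The count of 6 was 2 in a fit of the 11 samples. The count of 5 was 2 without any 1 of LPS replicates 2 and 5 and NaCl/HI replicates 1 to 3, and 3 without LPS replicate 1 or 4, LPS/HI replicate 2 or 3 or Sham replicate 2, 4 or 6.

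Lysosomal genes were also divided, with 8 of 58 (13.8%) higher in the LPS group and 7 (12.1%) in the NaCl/HI group. Fuca1, a fucosidase, and Gm2a, the activator of ganglioside breakdown, were higher in the LPS group (0.33 ± 0.05 and 0.30 ± 0.06, adjusted p = 0.000316 and 0.00395), and the sulfatase Arsb was higher in the NaCl/HI group (-0.33 ± 0.06, adjusted p = 0.002). The count of 7 was 2 without LPS replicate 1 or 4 and 3 without LPS replicate 5 or NaCl/HI replicate 5. In the fibrinolysis and protease inhibitor list, 5 of 40 genes (12.5%) were higher in the NaCl/HI group, among them the plasminogen activator Plau (-0.45 ± 0.11, adjusted p = 0.0148), and 1 (2.5%), the elastase inhibitor Serpinb1a, was higher in the LPS group (0.56 ± 0.13, adjusted p = 0.00699). The count of 5 was 2 without LPS replicate 5 and 3 without LPS replicate 4 or NaCl/HI replicate 1 or 2.

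Of 34 glucocorticoid-responsive genes, 5 (14.7%) were higher in the LPS group, led by the transcription factor Cebpb (0.58 ± 0.11, adjusted p = 0.00168), and 3 (8.82%) in the NaCl/HI group, led by the kinase Sgk1 (-0.46 ± 0.10, adjusted p = 0.00619). The first count was 2 without LPS replicate 2 or 5 and 3 without NaCl/HI replicate 2 or 3, and the second was 1 without LPS replicate 2 or 4 or NaCl/HI replicate 1, 4 or 6. Of 43 p53 targets and cell death genes, 4 (9.3%) were higher in the LPS group and 6 (14%) in the NaCl/HI group, where the survival factor Bcl2 differed by -0.30 ± 0.08 (adjusted p = 0.0145). Single libraries moved these counts to between 0 and 4 and between 3 and 6.

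For the remaining programme lists, counts higher in the LPS group and then in the NaCl/HI group follow, beside 5.32% and 3.66% of all genes. They were 4 (21.1%) and 0 of 19 interferon ligands and receptors, and 3 (11.1%) and 2 (7.41%) of 27 chemoattractant receptors. Of 39 NRF2 targets they were 4 (10.3%) and 0, and of 37 immediate early genes 2 (5.41%) and 1 (2.7%). Of 26 S100 proteins and annexins they were 2 and 2 (7.69% each). Of 37 adhesion genes they were 3 (8.11%) and 5 (13.5%), and of 34 matrix proteases 1 (2.94%) and 4 (11.8%). Without single libraries the 4 interferon genes were as few as 2, the 4 NRF2 targets as few as 0, the 5 adhesion genes as few as 1 and the 4 proteases as few as 1. The 2 immediate early genes on the LPS side and the 2 chemoattractant receptors on the NaCl/HI side were as few as 0, and the 2 S100 proteins and annexins on the NaCl/HI side were 1 to 4. Among markers of other cells the counts on the LPS and NaCl/HI sides were 2 and 2 of 30 (6.67% each) for endothelium. They were 0 and 1 (5.56%) of 18 for pericytes and 3 (15%) and 1 (5%) of 20 for astrocytes. For neurons they were 0 and 3 (12%) of 25 and for platelets 0 and 1 (10%) of 10. Without single libraries the 2 endothelial genes on the NaCl/HI side were as few as 0, and the 1 pericyte gene was 0 to 3. The exact permutation test called fewer members in several of these lists. On the NaCl/HI side it called 2 of the 5 effector enzymes, 3 of the 7 lysosomal genes, 1 of the 5 fibrinolysis genes, and 0 of the 3 glucocorticoid-responsive genes, the 6 p53 targets, the 5 adhesion genes and the 4 matrix proteases. On the LPS side it called 2 of the 5 glucocorticoid-responsive genes, 1 of the 3 chemoattractant receptors, and 0 of the 4 p53 targets, the 3 adhesion genes and the 3 astrocyte markers.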
